A study of Rattus norvegicus with 12 samples.

Results

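Immediate early transcription factors were examined in the ND7/23 line at a single time, 6 h after stimulation with menthol, Wnt3a or both. *Jun* fell by about 10% with Wnt3a, a call that rested on a narrow margin, and none of the other 9 genes passed the test for either stimulus. *Fosl1* and *Junb* were the most abundant of the 10 in every group, and *Fos* and *Fosb* were near the low end of the tested genes. The genes were the Fos family (*Fos*, *Fosb*, *Fosl1*, *Fosl2*), the Jun family (*Jun*, *Junb*, *Jund*), *Atf3*, *Egr1* and *Ier2*. They were picked out by symbol, and earlier results of these data were known when they were chosen. All 10 were found among the 21556 genes of the expression table. All 10 also passed the minimum of a mean of 0.5 FPKM over the 12 libraries, as did 11451 genes in all. FPKM is the number of read fragments scaled by the length of the gene and by the mapped fragments of the library, so levels can be set side by side between genes.

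ND7/23 is a hybrid line whose parents were sensory neurons of the rat dorsal root ganglion and the mouse neuroblastoma N18Tg2. The 4 groups of 3 libraries were control cells, cells with 100 μM menthol, an agonist of the cold channel TRPM8, cells with 100 ng/ml Wnt3a, which activates Wnt/β-catenin signalling, and cells with menthol and Wnt3a together, each for 6 h. The study's methods describe stimulation in medium with antibiotics and name no serum for that step, and the labels name no vehicle for the control. In its animal methods the menthol stock was made in DMSO. Whether the control cells had DMSO is not given, so a solvent effect cannot be told apart from one of menthol. All cells were of 1 line, which was purchased, and nothing in the labels states that the 3 libraries of a group came from separate cultures, so the p-values measure the spread between these libraries. The comparisons asked how menthol, Wnt3a and their combination changed the transcriptome.

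Immediate early genes are transcribed within minutes of a stimulus from factors already present in the cell, without new protein being made first. Growth factors and calcium reach them through the serum response factor with its ETS partners and through CREB. Fos and Jun proteins pair through leucine zippers into AP-1, which binds DNA as Fos-Jun or Jun-Jun dimers, whereas Egr1 binds GC-rich sites through zinc fingers. In sensory neurons, *Fos* and *Egr1* are widely used as marks of recent activity, and *Jun* and *Atf3* as marks of nerve injury. Most of these transcripts are short-lived and fall back within hours, while *Fosl1* tends to come later and *Jund* is made in most resting cells.

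The promoters of the group differ in the sites they carry. Among RefSeq promoters of the GRCr8 build, the 250 bases before the gene start were read for 7 of the 10 genes (*Fosb*, *Fosl1*, *Fosl2*, *Junb*, *Jund*, *Egr1* and *Ier2*), and *Fos*, *Jun* and *Atf3* were not matched. The full cyclic AMP response element, TGACGTCA on either strand, which CREB and ATF proteins bind, was present in 2 of the 7 and in 1.59% of 33469 promoters. The AP-1 site TGANTCA was in 0 of the 7, against 6.34% of all promoters. The EGR site GCGNGGGCG was in 2 of the 7, *Fosl2* and *Jund*, against 4.29%. The CArG box, the site of the serum response factor, was in 1 of the 7, *Egr1*, with 2 matches, against 1.5%. No 2 matches overlapped. The 2 stretches with the cyclic AMP response element are shown because no other promoter of the 7 held the full element. The capitals mark the element, which lies 221 to 214 bases before the start of *Jund* (chr16:18769965-18770012, minus strand) and 66 to 59 bases before the start of *Ier2* (chr19:40399287-40399334, plus strand).
Jund: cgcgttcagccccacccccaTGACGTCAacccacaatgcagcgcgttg
Ier2: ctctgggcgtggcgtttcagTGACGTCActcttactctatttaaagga
A match of letters is a description of the promoter and not a measured binding site.

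The libraries were of like depth, with 36914722 to 38837023 reads on genes as recovered from the FPKM steps, so that 3 reads on a 1 kb gene correspond to 0.0772 to 0.0813 FPKM. For scale, and chosen because their responses in these libraries were known, *Axin2*, a feedback target of Wnt signalling, differed by 0.62 (SE 0.05) on the log2 scale between the 6 libraries with Wnt3a and the 6 without, and *Mt1*, a metallothionein, by 1.32 (SE 0.15) between those with and without menthol. Of 10 sensory neuron markers, *Isl1* alone exceeded a mean of 0.5 FPKM over the 12 libraries (mean 13.2). *Snap25*, of the synaptic release machinery, averaged 0.462 FPKM on 8 to 81 reads per library, with group means of 0.221 in control, 0.267 under menthol, 0.4996 under Wnt3a and 0.863 under both. The means of *Tubb3*, *Prph*, *Pou4f1*, *Nefl*, *Nefm*, *Stmn2* and *Scn9a*, among them the defining cytoskeletal genes of such neurons, lay between 0.00486 and 0.0606 FPKM. Of the other lists, 4 of 5 fibroblast markers and 1 of 8 skeletal muscle markers exceeded 0.5 FPKM, led by *Col1a2* at 114.7 and *Tnnt3* at 7.38 FPKM.

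The levels of the 10 genes ran from percentile 13.2 to percentile 95.7 of the tested genes. *Fosl1* was the most abundant at a mean of 140.9 FPKM over the 12 libraries, higher than 95.7% of the tested genes. *Junb* followed at 102.1 FPKM and *Jund* at 79.1 FPKM, at percentiles 93.8 and 91.9. *Jun* stood at 32.3, *Ier2* at 23.2, *Egr1* at 15.9, *Fosl2* at 12.8 and *Atf3* at 7.57 FPKM. *Fos* and *Fosb* closed the order at 1.88 and 1.67 FPKM, with *Fos* at percentile 14.8. Neighbours in this order did not overlap over the 12 libraries, with 2 exceptions. *Egr1* and *Fosl2* overlapped in range, although *Egr1* was the higher in 12 of 12 libraries. *Fos* exceeded *Fosb* in 8 of 12 libraries, so these 2 levels were not separated beyond their spread.

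**Figure D1:**
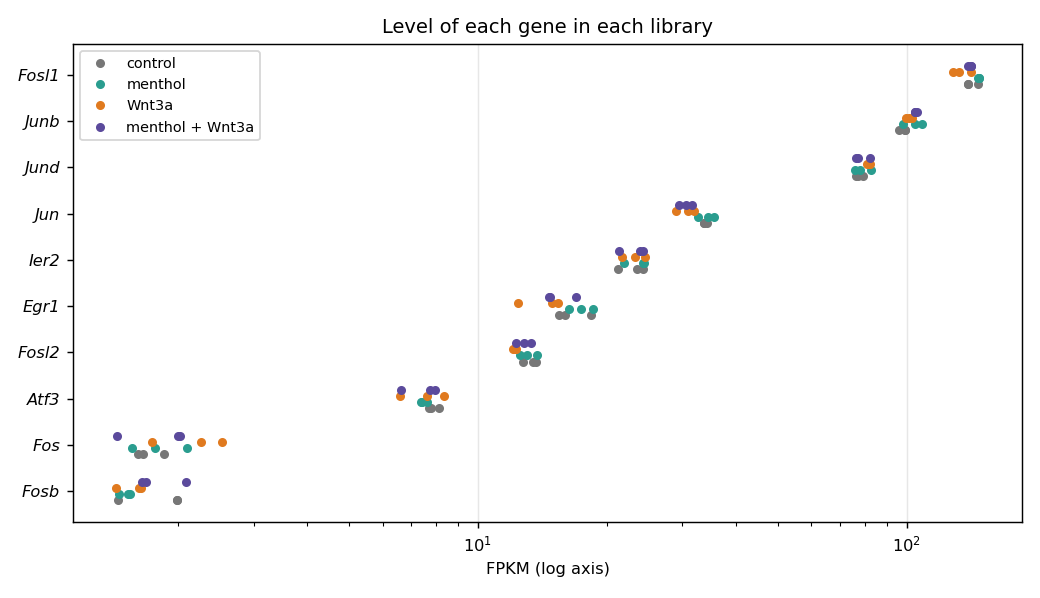
FPKM on a log axis of each of the 10 genes, ordered by mean, with 1 point for each library and colours for the 4 groups. The points of *Fosl1*, *Junb* and *Jund* lie between 75.8 and 147.8 FPKM and those of *Fos* and *Fosb* between 1.43 and 2.52 FPKM, and the groups lie on top of each other at this scale.

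The 2 least abundant genes, *Fos* and *Fosb*, varied most between libraries of a group. *Fos* was read by 87 to 153 fragments per library, and its within-group coefficient of variation was 15.3%, where counting alone gives 9.37%. For *Fosb* these were 11.6% and 6.62%, and for *Egr1* 9.0% and 3.28%. The well-expressed genes were far tighter, at 2.76% for *Junb*, 2.88% for *Fosl1* and 3.21% for *Jund*, against 1.06 to 1.40% from counting. All 10 genes therefore varied more between libraries of a group than read counting gives. From the highest to the lowest of the 12 libraries the ratio ran from 1.09 for *Jund* to 1.75 for *Fos*, so none of the 10 changed by as much as 2-fold between any pair of libraries.

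Within the Fos family, *Fosl1*, which encodes Fra-1, a family member without the strong activation domain of Fos, made up most of the transcript. Its share of the family's summed FPKM was 88.7 to 90.2% per library (median 89.7%). *Fosl2*, which encodes the related Fra-2, contributed 7.68 to 8.75%, *Fos* 0.915 to 1.74% and *Fosb* 0.890 to 1.32%. The mean share of *Fosl1* was 89.4% in control, 89.98% under menthol, 89.4% under Wnt3a and 89.5% under both, so the make-up of the family was nearly the same in the 4 groups.

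*Fosl1* read 146.4, 139.0 and 139.0 FPKM in control replicates 1 to 3 and 147.5, 147.8 and 146.9 FPKM under menthol. The values were 132.6, 141.1 and 128.6 FPKM under Wnt3a and 141.4, 139.1 and 141.7 FPKM under both. The 3 menthol libraries lay above the 3 control libraries by a narrow margin, since control replicate 1 stood close below the lowest of them, and the Wnt3a group overlapped the control. Menthol, averaged over its effects without and with Wnt3a, shifted *Fosl1* by 4.61% (95% interval 0.975 to 8.38%, limma adjusted p = 0.205) and Wnt3a by -4.90% (-8.21 to -1.48%, limma adjusted p = 0.173). Neither shift passed the test after adjustment over all genes.

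*Fosl2* read 13.4, 13.7 and 12.7 FPKM in control, 13.05, 13.7 and 12.52 under menthol, 12.3, 12.1 and 12.2 under Wnt3a and 12.8, 13.3 and 12.3 under both. All 3 Wnt3a libraries were below all 3 control libraries. The Wnt3a group was also the most uniform, with a mean of 12.2 ± 0.0866 FPKM (SD, n = 3) against 13.3 ± 0.499 FPKM in control. The log2 change of Wnt3a against control was -0.12 (SE 0.05), which did not pass the test (limma adjusted p = 0.243).

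*Fos*, the founding member and the usual readout of a recent stimulus, read 1.65, 1.85 and 1.61 FPKM in control and 1.56, 1.76 and 2.09 FPKM under menthol. With Wnt3a it read 2.26, 1.74 and 2.52 FPKM, and with both 1.44, 1.99 and 2.02 FPKM. Wnt3a replicates 1 and 3 were the highest of the 12 libraries, but Wnt3a replicate 2 lay within the control range. The log2 change of Wnt3a against control was 0.32 (SE 0.16, limma adjusted p = 0.358), and that of both stimuli against Wnt3a alone was -0.24 (SE 0.16, limma adjusted p = 0.493). For the effect of menthol over all 12 libraries the interval ran from -20.1 to 10.9%, and for Wnt3a from -5.08 to 31.7%. Changes of this size could not be told from none in these libraries.

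*Fosb* read 1.99, 1.99 and 1.45 FPKM in control, 1.46, 1.52 and 1.54 under menthol, 1.43, 1.64 and 1.62 under Wnt3a and 1.68, 1.64 and 2.08 under both. The libraries with 1 stimulus lay together at the low end, and control replicate 3 lay with them. Menthol against control gave a log2 change of -0.23 (SE 0.13, limma adjusted p = 0.621) and both stimuli against Wnt3a one of 0.19 (SE 0.13, limma adjusted p = 0.537). The difference between these changes, the interaction of menthol and Wnt3a, was 0.42 (SE 0.18, unadjusted p = 0.0382, limma adjusted p = 0.715) and did not pass.

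**Figure D2:**
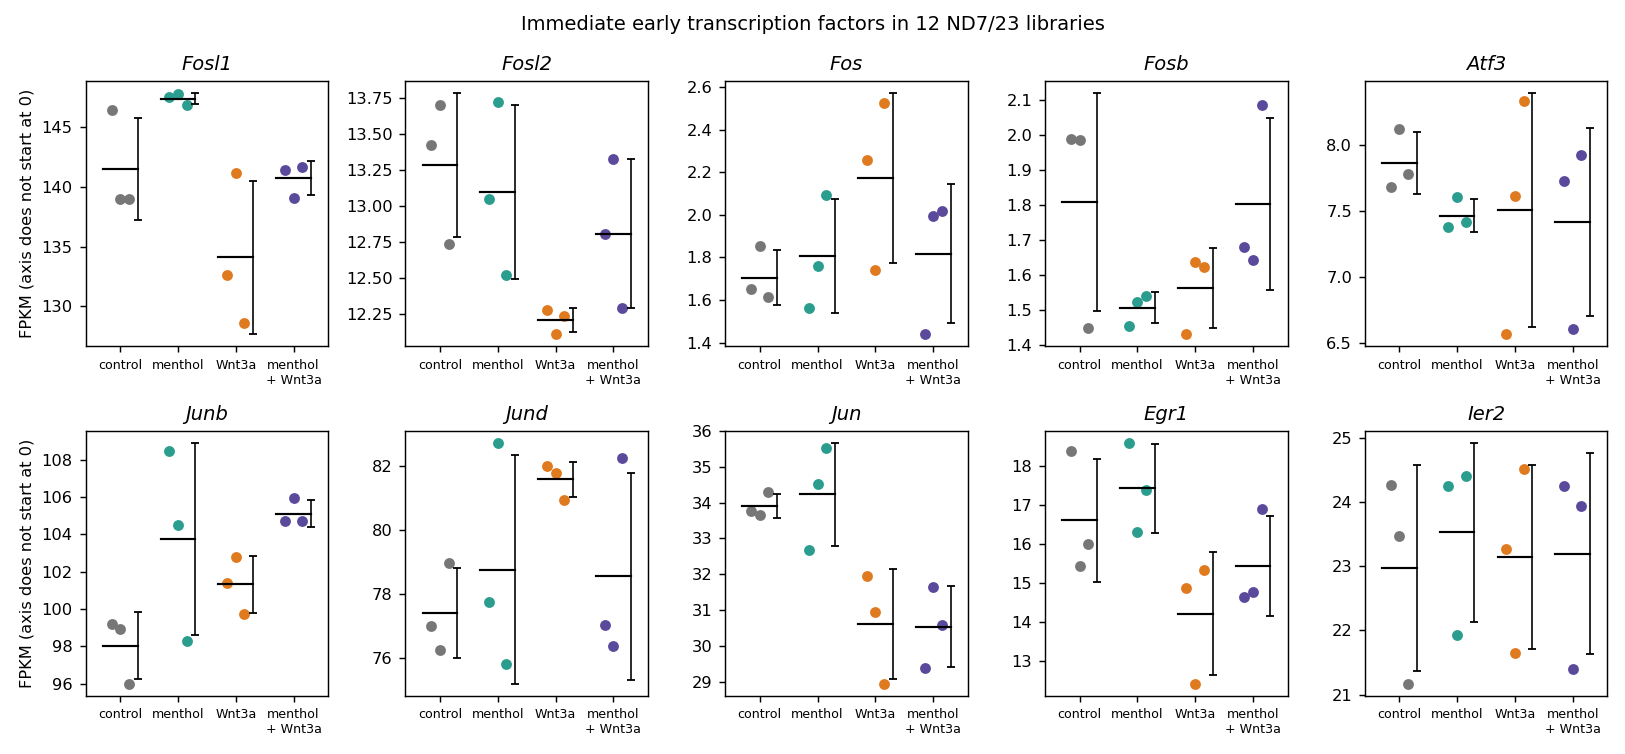
FPKM in each library for the 10 genes, 1 panel a gene, with points for the 3 libraries of a group, a line at the mean and a bar of 1 SD on each side. The axes do not start at 0 and differ between panels. In the *Jun* panel, the 6 libraries with Wnt3a (28.95 to 32.0 FPKM) lie below the 6 without it (32.7 to 35.5 FPKM). In every other panel these sets of 6 overlap, although some single groups of 3 lie apart.

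The Jun family, the obligate partner of Fos proteins in AP-1, was the more abundant family at 208.8 to 221.8 FPKM summed, against 144.9 to 164.8 FPKM for the Fos family. *Junb*, often an antagonist of c-Jun, held 45.9 to 49.6% of it, *Jund* 35.5 to 38.6% and *Jun* 13.8 to 16.9%. The mean share of *Jun* was 16.2 ± 0.165% in control and 15.8 ± 1.03% under menthol, against 14.3 ± 0.515% under Wnt3a and 14.3 ± 0.470% under both (SD, n = 3).

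*Jun*, which encodes c-Jun, was the 1 gene of the 10 that passed the test, which 0.803% of all tested genes did in the same comparison, and it fell with Wnt3a. It read 33.8, 33.7 and 34.3 FPKM in control and 32.7, 34.5 and 35.5 FPKM under menthol. With Wnt3a it read 32.0, 30.95 and 28.95 FPKM, and with both 29.4, 31.7 and 30.6 FPKM. The 6 libraries with Wnt3a were all below the 6 without it, a separation that 0.541% of the tested genes showed in this direction and 1.17% in either. Over these 6 against 6 the log2 change was -0.16 (SE 0.03, limma adjusted p = 0.0318, which 0.332% of all genes passed as lower), or -10.2% (95% interval -14.2 to -6.02%). The fall was far under the 2-fold that the study's threshold asks for. Fewer cells of one kind and less RNA per cell cannot be told apart in such bulk samples.

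The pairwise comparisons gave *Jun* changes of the same size that did not pass on their own. Wnt3a against control gave a log2 change of -0.15 (SE 0.04, limma adjusted p = 0.134), both stimuli against menthol -0.16 (SE 0.04, limma adjusted p = 0.322) and both against control -0.15 (SE 0.04, limma adjusted p = 0.133). The first and the last share the control libraries. Menthol over all 12 libraries left *Jun* at a log2 change of 0.00 (95% interval -4.15 to 5.04%, limma adjusted p = 0.962), with a sign that turned to -0.00313 when libraries were centred on their median.

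The pass of *Jun* was close to the threshold of the adjusted p. When 1 library was left out, the log2 change stayed between -0.17 and -0.14, but the adjusted p ran from 0.0251 to 0.0821 and passed in 4 of 12 cases. The pass was lost without any 1 of control replicates 1, 2 and 3 or menthol replicates 2 and 3. The same held for Wnt3a replicate 2 and for replicates 1 and 3 of menthol with Wnt3a, at an adjusted p of 0.0639 or more throughout. It was also lost with no FPKM minimum, where more genes entered the adjustment (adjusted p = 0.0831). The summed FPKM of the sensory neuron markers moved with the same stimulus. It was 11.2 to 11.8 in control and 9.89 to 11.1 under menthol, against 14.99 to 18.5 under Wnt3a and 16.2 to 16.9 under both. *Isl1* made up most of this sum (log2 change 0.54, SE 0.05, limma adjusted p = 0.000173), and the group means of *Snap25* given above were also higher with Wnt3a than without it, a difference that was not tested. The part of that shift in the *Jun* result was not tested.

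**Figure D3:**
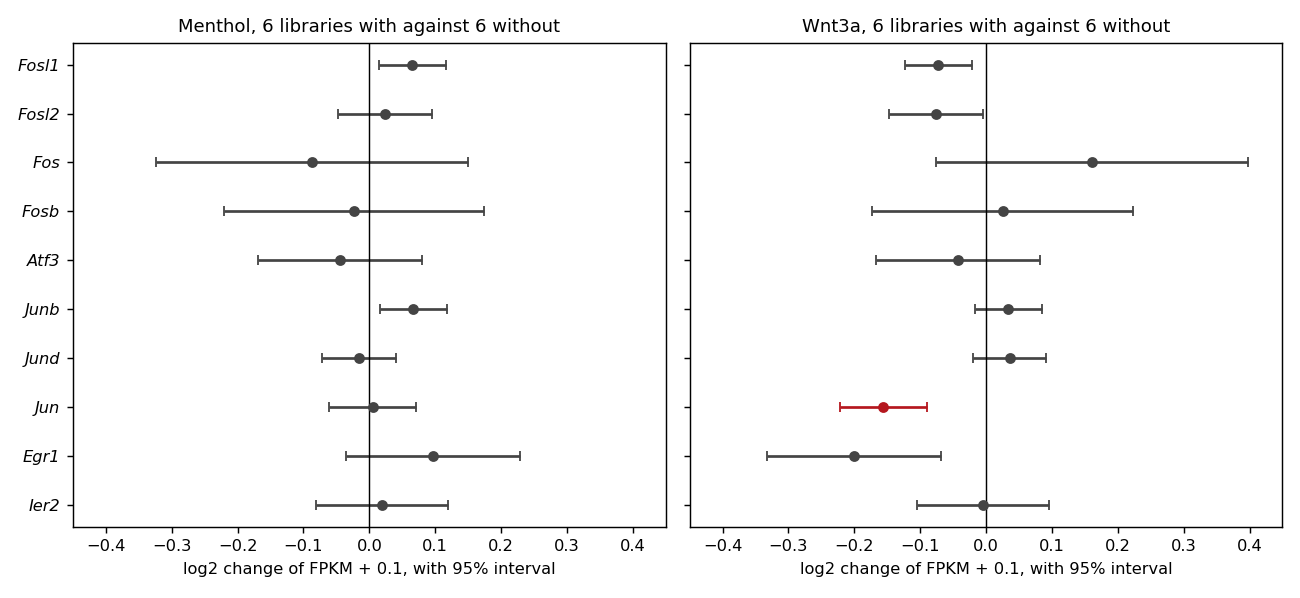
Log2 change of FPKM + 0.1 with its 95% interval for the 10 genes, 6 libraries with menthol against 6 without (left) and 6 with Wnt3a against 6 without (right). Red marks an adjusted p under 0.05, which *Jun* alone reached (-0.16), and the intervals of *Fos* and *Fosb* are the widest.

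*Junb* and *Jund* had the smallest SD of log2 values over the 12 libraries. *Junb* read 99.2, 98.9 and 96.0 FPKM in control, 108.5, 104.5 and 98.3 under menthol, 101.4, 102.8 and 99.8 under Wnt3a and 104.7, 105.9 and 104.7 under both. The 3 libraries with both stimuli and the 3 under Wnt3a lay above all control libraries, and menthol replicate 3 lay among the controls. Against control the log2 change was 0.08 under menthol (SE 0.03, limma adjusted p = 0.488) and 0.10 under both (SE 0.03, limma adjusted p = 0.194). *Jund* read 77.0, 76.3 and 79.0 FPKM in control, 77.8, 82.7 and 75.8 under menthol, 82.0, 81.8 and 81.0 under Wnt3a and 77.0, 76.4 and 82.3 under both. Its Wnt3a libraries all exceeded the control libraries, at a log2 change of 0.08 (SE 0.04, limma adjusted p = 0.354) that did not pass.

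*Egr1*, the zinc finger factor of the group, had the lowest values in the libraries with Wnt3a but did not pass. It read 18.4, 15.4 and 16.0 FPKM in control, 18.6, 16.3 and 17.4 under menthol, 14.9, 12.4 and 15.3 under Wnt3a and 14.6, 14.8 and 16.9 under both. The highest Wnt3a library was just under the lowest control library, while the group with both stimuli overlapped menthol. Over 6 libraries against 6, Wnt3a gave a log2 change of -0.20 (SE 0.06, unadjusted p = 0.0059, limma adjusted p = 0.154), larger than that of *Jun* but with 2 times its standard error.

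*Atf3*, a stress-induced member of the ATF family that pairs with Jun proteins, read 7.68, 8.13 and 7.78 FPKM in control, 7.38, 7.61 and 7.42 under menthol, 6.57, 7.62 and 8.34 under Wnt3a and 7.73, 6.61 and 7.93 under both. The 3 menthol libraries were all below the control libraries, and the groups with Wnt3a spread over both. *Ier2*, a nuclear protein of the immediate early response, read 24.3, 23.5 and 21.2 FPKM in control, 24.3, 21.9 and 24.4 under menthol, 23.3, 21.65 and 24.5 under Wnt3a and 24.2, 21.4 and 23.9 under both. Its 4 group means lay between 23.0 and 23.5 FPKM. For *Atf3* the interval of the menthol effect was -11.0 to 5.75% and that of the Wnt3a effect -11.0 to 5.83%. For *Ier2* the intervals were -5.46 to 8.61% and -7.02 to 6.81%.

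Counted over the 10 genes, 0 were called in the 8 comparisons, where a call asked for more than 2-fold besides an adjusted p under 0.05 (limma). Such calls were also rare among all tested genes, at 0.00873% when menthol was set against control, 0.0175% when Wnt3a was, 0.00873% for menthol over all 12 libraries and 0% in the other 5. On the adjusted p alone, 1 of the 10 passed with Wnt3a over all 12 libraries, where 0.803% of all genes passed, and 0 in the other comparisons. The shares of all genes there were 0.105% for menthol and 0.437% for Wnt3a, each against control. As counts these were 12 and 50 genes. Leaving out 1 library moved them between 0 and 15 for menthol and between 6 and 291 for Wnt3a. The group with both stimuli gave 0.83% when set against control, 0.0961% against menthol and 0.0524% against Wnt3a. The shares were 0% for the interaction and 1.15% for menthol over all 12 libraries. In the test of any difference among the 4 groups, 0 of the 10 passed, with *Jun* nearest (limma adjusted p = 0.0889), and 0.978% of all genes did.

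At an unadjusted p under 0.05, there were 4 of the 10 with Wnt3a against control (15.1% of all genes), 4 with Wnt3a over all 12 libraries (14.2%) and 2 with menthol over all 12 (15.5%). Leaving out 1 library moved the first of these counts between 1 and 5. There was 1 with menthol against control (9.34%). For both stimuli there were 0 (14.5%) with Wnt3a as the reference, 1 (6.72%) with menthol and 2 (13.5%) with control, and there was 1 for the interaction (6.99%). In the test of any difference there were 4 (17.4%). Groups that did not overlap were found for 5 of the 10 with Wnt3a against control (20.2% of all genes, 10.1% in each direction), with *Jun*, *Fosl2* and *Egr1* lower and *Junb* and *Jund* higher. There were 2 with menthol against control (15.9%), *Fosl1* higher and *Atf3* lower. The group with both stimuli lay apart from Wnt3a for *Fosb*, *Fosl2* and *Junb* (3 of the 10, 17.7%), from menthol for *Fosb*, *Fosl1* and *Jun* (3, 11.3%) and from control for *Jun* and *Junb* (2, 20.5%). The median log2 change of the 10 genes was -0.08 with Wnt3a against control and 0.03 with menthol against control, where that of all tested genes was 0.00 in both. The half-width of the 95% interval ran from 0.07 to 0.33 on the log2 scale in the pairwise comparisons, so a change of 2-fold would have lain outside every interval.

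The lists around the 10 are read against the shares of all genes that passed the adjusted p over all 12 libraries, 0.803% for Wnt3a and 1.15% for menthol. As counts these were 92 and 132 genes. Leaving out 1 library moved them between 55 and 151 for Wnt3a and between 52 and 143 for menthol. With Wnt3a 1 of 9, 3 of 33, 0 of 25 and 0 of 16 tested genes of the 4 lists passed, and with menthol 0, 1, 0 and 2 did. Of 15 bZIP partners, proteins that dimerise with Fos or Jun or bind like sites, 14 were in the table and 9 were tested. Of these 9, *Maf*, a large Maf factor, fell with Wnt3a over all 12 libraries (6.61 ± 0.304 FPKM in control, 6.78 ± 0.367 under menthol, 5.45 ± 0.393 under Wnt3a and 5.65 ± 0.0413 under both, SD, n = 3). Its log2 change was -0.27 (SE 0.05, limma adjusted p = 0.0135). None of the 9 passed for menthol over all 12 libraries, where *Atf7*, a CREB-like factor, had the smallest p (log2 change 0.08, SE 0.05, limma adjusted p = 0.401).

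Of 38 other immediate early genes, 33 were tested, and *Egr3*, *Egr4*, *Nr4a3*, *Arc* and *Npas4*, several of them marks of neuronal activity, were under 0.5 FPKM. With Wnt3a over all 12 libraries 2 rose and 1 fell. *Ccn1*, a matricellular protein, fell from 31.1 ± 2.82 FPKM in control and 27.8 ± 1.28 under menthol to 24.5 ± 0.869 under Wnt3a and 23.0 ± 0.643 under both (SD, n = 3), at a log2 change of -0.31 (SE 0.04, limma adjusted p = 0.00246). *Ier3*, a regulator of apoptosis, rose from 316.3 ± 3.52 FPKM in control to 365.7 ± 13.96 under Wnt3a (6 against 6, log2 change 0.17, SE 0.02, limma adjusted p = 0.00529). *Bhlhe40*, a clock-linked repressor, rose from 66.2 ± 1.5 FPKM in control to 71.0 ± 0.543 under Wnt3a and 76.4 ± 1.73 under both (6 against 6, log2 change 0.13, SE 0.02, limma adjusted p = 0.0108). *Errfi1*, a feedback inhibitor of the EGF receptor, rose with menthol, from 271.4 ± 1.85 to 286.9 ± 1.90 FPKM without Wnt3a and from 257.4 ± 4.8 to 282.7 ± 2.18 FPKM with it (6 against 6, log2 change 0.11, SE 0.02, limma adjusted p = 0.0063).

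*Ccn1*, *Ier3* and *Bhlhe40* also passed in part of the pairwise comparisons, and *Errfi1* in none of them. Against control, *Ccn1* fell with Wnt3a (log2 change -0.34, SE 0.06, limma adjusted p = 0.0297) and *Ier3* rose (0.21, SE 0.03, limma adjusted p = 0.0297). Without 1 of Wnt3a replicates 1 and 2 or control replicates 1 and 3, that pass of *Ccn1* was lost. That of *Ier3* was lost without any 1 of the control libraries or of Wnt3a replicates 1 and 2. The adjusted p were up to 0.125. Both passes were also lost with no FPKM minimum (adjusted p = 0.0824), and that of *Ccn1* when the fit held only the control and Wnt3a libraries (0.0893). Both stimuli against the same control libraries gave -0.43 for *Ccn1* (SE 0.06, limma adjusted p = 0.00206), 0.21 for *Ier3* (SE 0.03, limma adjusted p = 0.00871) and 0.21 for *Bhlhe40* (SE 0.03, limma adjusted p = 0.004). Over the 33 genes the Wnt3a change was above 0 for 10 and below 0 for 23, with a median of -0.04 where all genes had 0.00.

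Of 27 upstream regulators, the kinases, transcription factors and cofactors that act on these genes, 25 were tested and 0 passed for either stimulus over all 12 libraries. The smallest p belonged to *Srf*, the serum response factor, for Wnt3a (log2 change -0.11, SE 0.03, limma adjusted p = 0.132) and to *Elk1*, its ETS partner, for menthol (0.15, SE 0.05, limma adjusted p = 0.13). Of 18 AP-1 target genes, 16 were tested. With menthol over all 12 libraries *Plaur*, the urokinase receptor, rose (72.9 ± 3.57 FPKM in control and 80.9 ± 1.44 under menthol, SD, n = 3, log2 change 0.14, SE 0.03, limma adjusted p = 0.0307) and *Vim*, the intermediate filament vimentin, fell (915.8 ± 14.9 and 857.0 ± 30.0 FPKM, log2 change -0.12, SE 0.02, limma adjusted p = 0.018). The pass of *Plaur* was lost without control replicate 2, menthol replicate 1 or 3, or replicate 2 or 3 of both stimuli (adjusted p of up to 0.08). That of *Vim* was lost without control replicate 2 or 3 or Wnt3a replicate 1 (up to 0.0643). With no FPKM minimum both were lost (adjusted p = 0.0793 for *Plaur* and 0.0789 for *Vim*), and *Plaur* also when libraries were centred on their median (0.0531). With Wnt3a 0 of the 16 passed, and *Hbegf*, an EGF receptor ligand, had the smallest p (log2 change -0.12, SE 0.03, limma adjusted p = 0.0977).

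Of the fibroblast markers, 4 of 5 were tested and 1, *Col1a2*, passed for menthol, and it fell. The summed FPKM of the 5 was 136.2 to 144.9 in control, 124.1 to 128.0 under menthol, 128.3 to 135.1 under Wnt3a and 124.0 to 125.7 under both, most of it from *Col1a2* (log2 change over 6 against 6 -0.11, SE 0.02, limma adjusted p = 0.0251). The pass of *Col1a2* was lost without control replicate 1 or 2, menthol replicate 3 or Wnt3a replicate 1. It was also lost without replicate 2 or 3 of both stimuli, with adjusted p of up to 0.0673. The sum also lay below control under Wnt3a alone, while under both stimuli it overlapped that under menthol. The part of these shifts in the menthol and Wnt3a results was not tested.

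**Figure D4:**
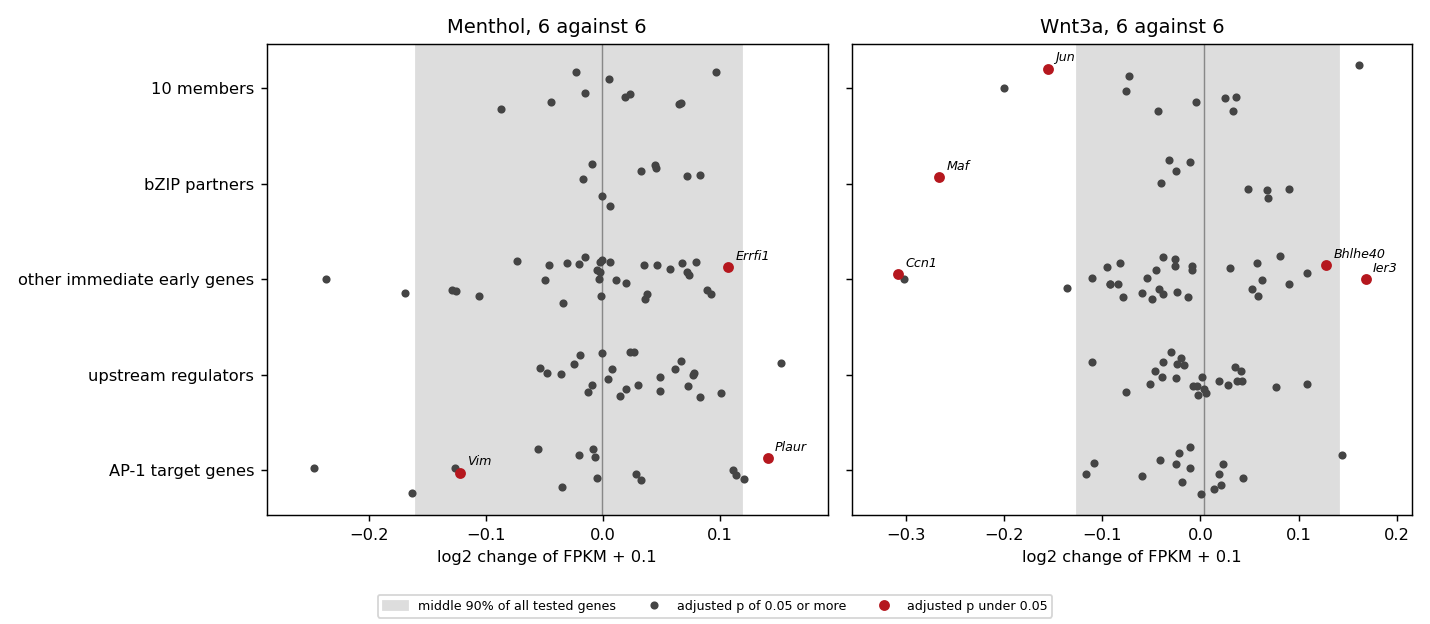
Log2 change of FPKM + 0.1 for every tested gene of the 10 and of the 4 related lists, with menthol (left) and with Wnt3a (right), 6 libraries against 6. The grey band holds the middle 90% of all tested genes, the vertical position within a row carries no meaning, and red marks an adjusted p under 0.05, which 1 of 10, 1 of 9, 3 of 33, 0 of 25 and 0 of 16 genes reached with Wnt3a.

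The genes whose levels moved most like those of the 3 most variable members were found over the 12 libraries, as a description only. For *Fos* these were *Ogt* (Pearson r 0.87, Spearman rho 0.78), LOC120099936 (0.86, 0.83) and *Lcorl* (0.84, 0.92). For *Fosb* they were *Myo1c* (0.88, 0.71), *Rps6ka4* (0.87, 0.82) and *Ighmbp2* (0.86, 0.78), and for *Egr1* they were *Sgms2* (0.90, 0.92), *Zbtb7a* (0.90, 0.84) and *Fam20b* (0.87, 0.81). These are the highest r among all tested genes over the same 12 libraries, which share their 4 groups, and no other member was among them.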

How the data were processed

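Per the labels and the methods, the authors trimmed reads with fastp, aligned them with HISAT to the rat build mRatBN7.2 named in the submitters' processing notes, counted them with HTSeq and deposited FPKM for 21556 genes. How reads from mouse transcripts of the hybrid line were assigned is not given in the sources used here. The authors' own comparisons, made with DESeq2, were not used. FPKM removes gene length and depth, so a rise of abundant genes lowers the rest.

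Groups and replicate numbers came from the sample labels. Values were tested with limma 3.58.1 in R 4.3.3 on log2(FPKM + 0.1), which understates changes of low genes, over the 11451 genes that averaged 0.5 FPKM or more, with all 4 groups in 1 fit, a trend of variance with the mean, two-sided tests and Benjamini-Hochberg adjustment over all tested genes. A call needed an adjusted p under 0.05 and more than 2-fold, the study's threshold. Of the 8 comparisons, 2 set the 6 libraries with a stimulus against the 6 without it. Whole read counts were recovered from the FPKM steps for 100.0% of genes (relative tolerance 1e-8), although 1804 genes above 0 in 1 library only could not be checked, and served for counting errors and limma voom. Depth limits cover counting error only. No 2 libraries of a group were alike within counting error (chi-square over its degrees of freedom 3.53 to 7.61, 12 pairs). The test was also run on simulated data. The changes planted there were larger than those of the members, so that check does not bear on changes of their size.

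Of 18 pairs of libraries with the same replicate number, 1 had a correlation of deviations over 0.1, so the numbers were not taken to pair samples. Named genes were all 10 members, list genes that passed the adjusted p, the gene of each list with the smallest p for each stimulus over all 12 libraries, and the 3 genes most correlated with each of the 3 most variable members. The members and lists were chosen with earlier results of these data known. Some marker genes are not reported here. Alternatives were pseudocounts of 0.01 and 1, a minimum FPKM of 1 or none, median centring, a call without the fold threshold, separate fits of the groups compared, a replicate block, leaving out each library, and voom.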

Additional observations from a re-analysis of the deposited data

Results flagged for a closer look

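*Fosb* was the 1 gene of the 10 for which every library under a stimulus lay on one side of the mean of its reference group without the other stimulus, and every library lay on the opposite side with it. Other members had mean changes of opposite sign, but not in every library. All 3 menthol libraries (1.46 to 1.54 FPKM) lay below the control mean of 1.81 FPKM, whereas all 3 libraries with both stimuli (1.64 to 2.08 FPKM) lay above the Wnt3a mean of 1.56 FPKM. Read the other way, all 3 Wnt3a libraries lay below the control mean and all 3 libraries with both lay above the menthol mean. The difference of the log2 changes, which is the same number for both readings, was 0.422 (SE 0.184, unadjusted p = 0.0382), and it did not pass limma's test after adjustment over all genes (adjusted p = 0.715). *Fosb* was read by 197 to 283 fragments per library, and control replicate 3 (1.45 FPKM) stood apart from the other two controls (1.99 and 1.99 FPKM). With 3 libraries a group, single libraries were not tested as outliers.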

How the results depend on the processing

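Of the 80 changes of the 10 genes in 8 comparisons, 47 kept their sign in every setting, and 33, none larger than 0.0743 on the log2 scale, turned in at least 1. With no fold threshold, 1 gene (*Jun*) was called with Wnt3a over all 12 libraries. The count passing the adjusted p alone there was 0 with no FPKM minimum, where more genes entered the adjustment, and 0 to 1 when 1 library was left out. In the test of any difference among the 4 groups 1 gene passed with limma voom. No paired analysis was taken as the main one, and 6 of 12 libraries correlated best with their own number. The replicate block left the counts of passing members as they were (*Jun* with Wnt3a at an adjusted p of 0.0401). Over all tested genes it moved the count from 92 to 135 for Wnt3a and from 132 to 157 for menthol, 6 against 6. The count stayed at 50 for Wnt3a against control and went from 11 to 10 for both stimuli against menthol. The adjusted p of *Jun* ran from 0.00331 with voom to 0.0831 with no FPKM minimum.

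Signs turned for changes near 0. Leaving out 1 library moved the log2 change of *Fosb* between -0.0951 and 0.0129 for menthol and between -0.0466 and 0.0614 for Wnt3a, and that of *Ier2* between -0.00958 and 0.0475 for menthol and between -0.0336 and 0.0235 for Wnt3a. For *Jun* with menthol it ran from -0.0149 to 0.0214, with -0.00313 under median centring, and for *Atf3* with Wnt3a from -0.0819 to 0.00287. The cause was not tested. With voom, *Srf* (adjusted p = 0.0474) and *Hbegf* (0.0428) also passed for Wnt3a, *Hbegf* as well without control replicate 3 (0.036), and *Ccn1* passed for both stimuli against menthol (0.026, 0.0413 with the replicate block and 0.0238 without control replicate 1). With 87 to 153 reads for *Fos*, depth limits that gene most.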
